A study of Mus musculus with 6 samples.

Results

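The TRIM family was followed here in splenic monocytes of mice gavaged with water or vancomycin. Members were the genes whose symbol is Trim followed by a number and at most 1 letter, with 1 row per symbol. The symbol rule found 67 members among 46072 gene identifiers, and for 54 of them the counts summed to more than 0. Changes between groups are given for the 39 members with a mean count of at least 50 over the 6 libraries. The other 15 members with a count are described by their levels, and 13 members were listed at 0 in every library.

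TRIM proteins carry a RING domain, B-box zinc fingers and a coiled coil in tandem, and many act as E3 ubiquitin ligases, the enzymes that choose the protein to which ubiquitin is attached. In monocytes and macrophages the family is best known for antiviral defense. Some members bind viral capsids, some modify the cytosolic sensors of viral RNA and DNA, and a chromatin branch named TIF1 represses transcription. Many TRIM genes are induced by interferon through the ISRE, the promoter element bound by interferon-activated STAT and IRF factors.

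All mice were young adult female C57BL/6. The control group (Con) received water by oral gavage for 6 days, and the vancomycin group (Van) received 2 mg of vancomycin per mouse per day over the same 6 days. All mice then rested without antibiotic, for 6 to 8 days by the labels and for 8 days as stated for these groups with the sequencing experiment, and splenic monocytes were isolated by negative selection with a kit and went into RNA extraction with no stimulation stated in the labels. Each group had 3 libraries, described as biological replicates, and total counts ran from 43383919 to 61834407 per library. These are estimated counts derived from coverage and may be scaled, so neither the totals nor the minimum mean of 50 counts measure the depth in reads.

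The labelled cell type was checked against marker genes. Monocyte markers dominated, with 10 genes such as Csf1r, Lyz2 and Ly6c2 summing to 19683 to 20592 CPM, a gene's count scaled to the size of its library, in Con and 17815 to 19643 in Van. Of these 10 genes, 8 were lower and 2 higher in Van, and every Van sum lay below every Con sum. Ccr2 (adjusted p = 0.0283) and Fcgr1 (adjusted p = 0.0328) were lower in Van by the edgeR test described below. Erythroid markers moved the other way. Their sum was 86.6 to 174 CPM in Con and 286 to 628 in Van, all 11 genes tested were higher in Van, and 5 of them, the globin genes Hba-a1, Hba-a2, Hbb-bs and Hbb-bt and the heme enzyme gene Alas2, passed the test. The calls of these 7 genes were each lost without Con 1, Con 2, Con 3 or Van 2, with adjusted p up to 0.147. With the replicate number as a block, the calls of Ccr2 (adjusted p = 0.0549) and Fcgr1 (adjusted p = 0.0895) were lost as well. Dendritic cell markers summed to 55.4 to 61.4 CPM in Con and 55.5 to 58.2 in Van, 4 of 5 were lower and 1 higher, and Clec9a was called lower (adjusted p = 0.0131), a call lost without Con 3 or Van 2 (adjusted p up to 0.0758). Red pulp macrophage markers summed to 1065 to 1277 CPM in Con and 1416 to 1731 in Van, with 4 of 5 higher, 1 lower and none called. B cell markers summed to 17.5 to 20.5 CPM in Con and 14.3 to 17.1 in Van, and 6 neutrophil markers summed to 4.93 to 9.42 CPM in Con and 2.63 to 8.33 in Van, with Ly6g at 0 among them. Plasma cell markers summed to 337 to 448 CPM in Con and 277 to 372 in Van, with all 5 lower. Eosinophil and basophil markers summed to 59.8 to 87.0 CPM in Con and 69.4 to 90.8 in Van, T cell markers to 40.5 to 53.8 and 31.4 to 42.9, platelet markers to 17.9 to 33.5 and 14.8 to 21.0, and NK cell markers to 0.770 to 0.901 and 0.494 to 1.148. All 5 B cell markers, all 5 neutrophil markers tested and all 5 platelet markers were lower in Van, as were 5 of 6 T cell markers. The part of these other cells in the TRIM values below was not tested. In bulk samples, fewer cells of a type and less RNA per cell cannot be told apart.

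Across the family, levels were compared on the deposited FPKM scale, which divides a gene's fragments by its length and by the library's mapped fragments. The 6 libraries held much the same summed TRIM level, from 464 to 496 FPKM. Of the 54 members with a count, 15 had a mean of at least 10 FPKM, 21 lay between 1 and 10, and 18 lay below 1. The 5 highest, Trim25, Trim30a, Trim8, Trim12a and Trim28, held 43.8% of the summed TRIM FPKM, and 6 of the 15 above 10 FPKM came from a single cluster on chromosome 7.

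Trim25, the ligase that acts on the RNA sensor RIG-I, had the highest level. It stood at 58.5, 61.7 and 59.8 FPKM in Con and at 76.2, 64.2 and 65.2 FPKM in Van. Trim30a, an interferon-induced restraint on TLR signaling, followed at 55.7, 62.2 and 59.9 FPKM in Con and 49.8, 55.1 and 54.9 FPKM in Van. These members overlapped in Con, so their order there did not exceed the spread, whereas in Van every Trim25 library lay above every Trim30a library. Trim8, a regulator of cytokine and NF-kB signaling, had 27.2, 32.3 and 33.1 FPKM in Con and 33.3, 33.4 and 31.1 FPKM in Van, and it overlapped with the neighboring Trim12a in Con. The other members formed a continuous slope down to Trim2 at a mean of 0.113 FPKM among those with a mean count of at least 50.

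**Figure D1:**
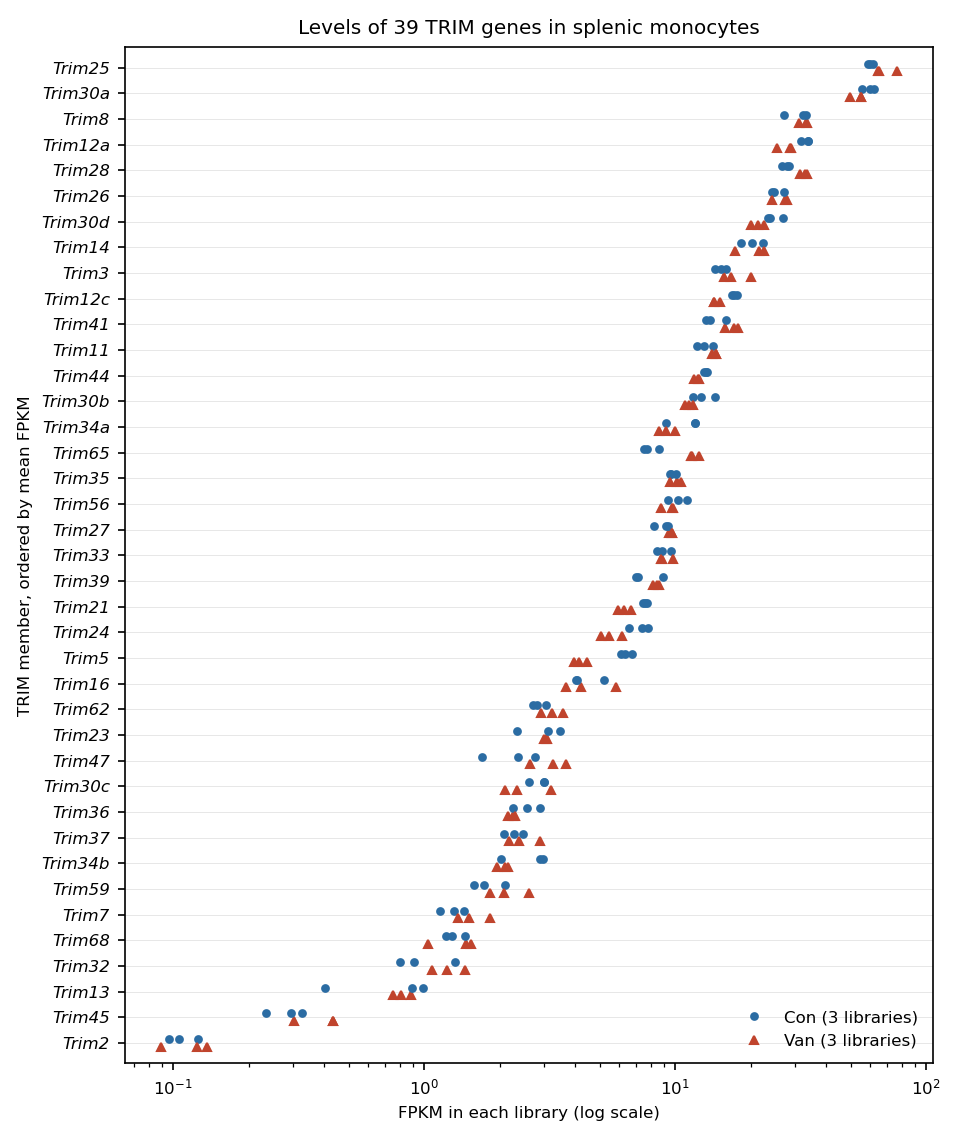
Level per length (FPKM, log scale) of the 39 TRIM members with a mean count of at least 50, in each of the 3 Con (circles) and 3 Van (triangles) libraries, ordered by mean FPKM. Levels run from a mean of 64.3 FPKM for Trim25 to 0.113 FPKM for Trim2, and for most members the Con and Van points lie close together compared with that range.

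The members listed at 0 in every library were Trim31, Trim38, Trim40, Trim42, Trim50, Trim52, Trim54, Trim55, Trim60, Trim63, Trim67, Trim71 and Trim75. They include the muscle ligases Trim54, Trim55 and Trim63 and the stem cell gene Trim71. No mean above 0.288 FPKM was reached by any of the 15 members with a count and a mean below 50.

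Whether the vancomycin protocol changed the family was tested with edgeR's quasi-likelihood test across all 16138 genes that passed a filter on low counts, with Benjamini-Hochberg adjustment. Calls were made where the adjusted p was 0.05 or lower. Of the 39 members, 2 were called: Trim65 was higher in Van by 48.3%, and Trim5 was lower by 34.9%. Over the genes with a mean count of at least 50, 2.46% were called (315 of 12807), and over all genes tested the share was 2%. A count of 2 among 39 is too small to be set apart from that background. At an unadjusted p under 0.05 there were 15 members, 6 higher and 9 lower, where 19.4% of genes passed. The CPM of the groups did not overlap in 13 members, where 24.8% of genes did not overlap. Although 24 of 39 members were higher in Van, the family's median log2 fold change was 0.04, beside 0.01 for all genes with a mean count of at least 50. Without Con 1, 19 members were higher and the median was -0.0040.

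**Figure D2:**
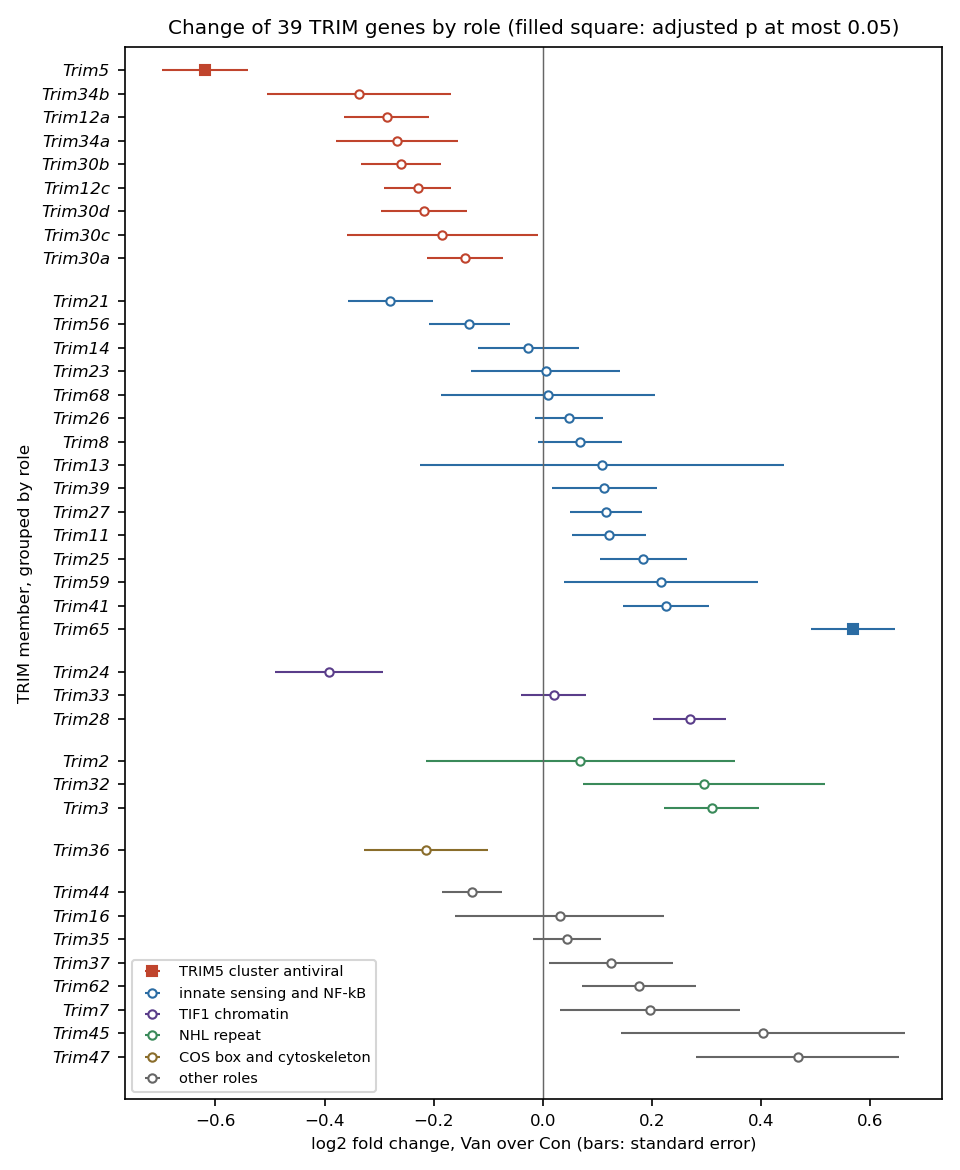
Log2 fold change of Van over Con with its standard error (edgeR, 3 libraries a group) for the 39 TRIM members, grouped by role; filled squares mark an adjusted p of 0.05 or lower. The 9 members of the TRIM5 cluster all lie below 0, from -0.62 to -0.14, and most members of the other groups lie above 0; Trim32, which also belongs to the innate sensing group, is drawn among the NHL repeat proteins.

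The signs were split by place in the genome, a pattern that was described and not tested. A run of 10 TRIM genes from Trim6 to Trim30d occupies 289057 bases of chromosome 7 (chr7:104218793-104507849, GRCm38), and 9 of them had a mean count of at least 50. These are the mouse relatives of primate TRIM5, a restriction factor that binds retroviral capsids, together with the Trim30 genes found in rodents. All 9 were lower in Van, where 48.6% of genes with a mean count of at least 50 were lower. Their median log2 fold change was -0.26, 6 had an unadjusted p under 0.05 (19.4% of genes with a mean count of at least 50), and 5 did not overlap between groups (24.8% of those genes). Of the 30 members outside the cluster, 24 were higher in Van, with a median of 0.11.

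The summed cluster was 548, 604 and 573 CPM in Con and 480, 487 and 514 CPM in Van. Every Van library therefore lay below every Con library. Some neighbors share stretches of transcript sequence or promoter letters, so the 9 genes are not 9 separate observations. The 18 annotated genes of the interval include 8 that are not TRIM genes, and 3 of these passed the filter on low counts. Gm15133 had a log2 fold change of -0.55 (adjusted p = 0.413), Gm25405 of -0.42 (adjusted p = 0.797) and Gm16464 of -0.61 (adjusted p = 0.248), so none was called by edgeR.

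**Figure D3:**
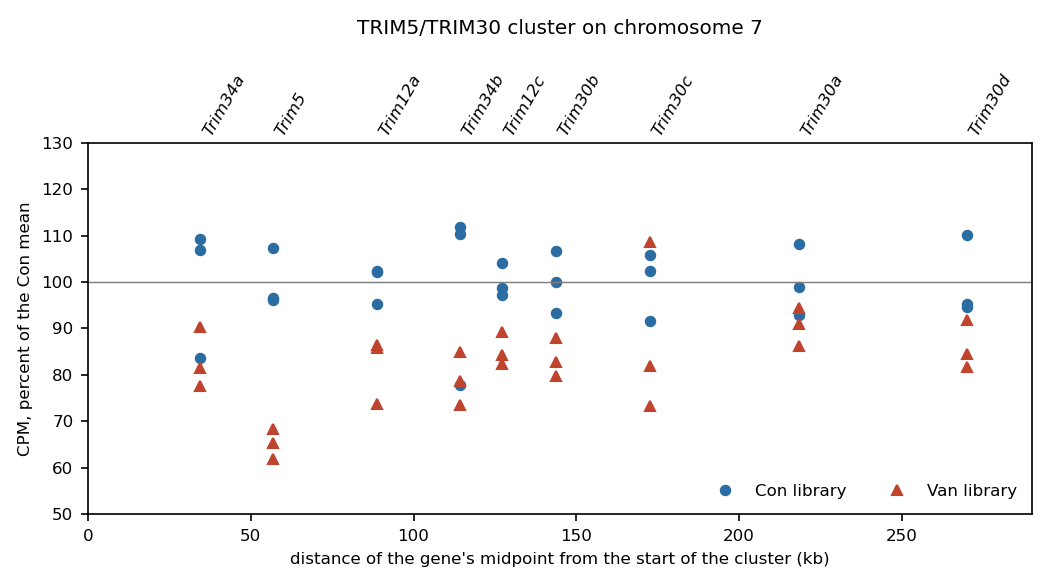
CPM of each library as a percent of the gene's Con mean (y axis) for the 9 cluster members with a mean count of at least 50, placed by the distance of the gene's midpoint from the start of the cluster in kb (x axis). Van libraries (triangles) lie below the Con libraries (circles) without overlap in Trim5, Trim12a, Trim12c, Trim30b and Trim30d, and the groups overlap in Trim34a, Trim34b, Trim30c and Trim30a.

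Promoter sequences are shown for 5 of the cluster members, because they are close copies within the Trim5, Trim12a and Trim12c group and within the Trim30a and Trim30d pair. Trim30b, Trim34a and Trim34b aligned with other members over short stretches only, and Trim30c, which is not printed, shared 89.2% of 176 columns with the outer start of Trim30a. They are the 250 bases before the RefSeq transcription start (GRCm38.p6), written 5′ to 3′ on the strand of the gene. All 5 genes lie on the reverse strand of chromosome 7. Capitals mark an ISRE core, GAAANNGAA on either strand, and here the match is on the strand opposite to the gene. The windows are chr7:104288107-104288356 for Trim5, chr7:104315496-104315745 for Trim12a, chr7:104353350-104353599 for Trim12c, chr7:104465194-104465443 for the outer start of Trim30a and chr7:104507850-104508099 for Trim30d.
Trim5: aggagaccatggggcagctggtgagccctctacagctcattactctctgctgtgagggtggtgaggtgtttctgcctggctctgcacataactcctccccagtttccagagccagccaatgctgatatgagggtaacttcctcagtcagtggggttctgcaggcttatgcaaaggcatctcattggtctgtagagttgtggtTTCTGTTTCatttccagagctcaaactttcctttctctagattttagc
Trim12a: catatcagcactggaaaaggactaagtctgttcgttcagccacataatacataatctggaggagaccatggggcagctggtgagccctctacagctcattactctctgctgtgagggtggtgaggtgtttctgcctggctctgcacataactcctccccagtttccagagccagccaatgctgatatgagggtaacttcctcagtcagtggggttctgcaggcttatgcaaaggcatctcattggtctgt
Trim12c: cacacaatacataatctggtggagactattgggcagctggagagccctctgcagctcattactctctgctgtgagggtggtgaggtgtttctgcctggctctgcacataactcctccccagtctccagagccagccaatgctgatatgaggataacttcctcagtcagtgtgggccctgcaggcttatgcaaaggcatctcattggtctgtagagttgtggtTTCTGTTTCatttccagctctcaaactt
Trim30a: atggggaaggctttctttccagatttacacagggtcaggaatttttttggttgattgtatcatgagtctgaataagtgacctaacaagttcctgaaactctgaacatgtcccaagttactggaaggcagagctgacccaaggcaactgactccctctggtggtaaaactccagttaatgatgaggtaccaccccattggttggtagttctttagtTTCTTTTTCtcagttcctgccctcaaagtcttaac
Trim30d: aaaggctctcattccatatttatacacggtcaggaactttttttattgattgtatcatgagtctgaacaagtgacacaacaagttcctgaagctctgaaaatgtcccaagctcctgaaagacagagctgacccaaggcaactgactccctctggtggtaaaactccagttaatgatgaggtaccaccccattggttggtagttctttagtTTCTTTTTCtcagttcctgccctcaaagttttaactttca

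In local alignments of the 300-base windows (250 bases before to 50 after the start), Trim5 and Trim12a were identical over 241 aligned columns. The Trim12a window has no capitals, since its start is annotated further upstream and its ISRE core match begins at position 12 after the start. Trim12c shared 94.2% of 278 columns with Trim5, and Trim30a and Trim30d shared 93.9% of 294 columns. The ISRE core match began 48 bases before the start in Trim5, 28 in Trim12c, 35 in Trim30a and 40 in Trim30d. In the 300-base windows, 8 of 11 cluster promoters held the core, compared with 8.56% of 32851 RefSeq promoters of that length. Several of these windows are near-copies of each other and are not independent. Outside the cluster, the core was found in Trim2, Trim7, Trim21, Trim25 and Trim26. The GAS letters TTCNNNGAA, the element of interferon-gamma signaling, were in 1 of the 11 cluster promoters (Trim30c) and in 8.3% of all promoters. No member promoter held both motifs. A match of letters is a description of the window. Promoter sequences were matched for 52 of the 67 members.

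Trim5 (ENSMUSG00000060441, chr7:104263386-104288094, reverse strand) was the cluster member that passed the test. It had 26.6, 29.7 and 26.7 CPM in Con and 17.1, 18.9 and 18.1 CPM in Van. All 3 Van libraries lay well below the lowest Con library. The log2 fold change was -0.62 with a standard error of 0.079 (edgeR adjusted p = 0.0131), and the exact two-sided permutation test gave p = 0.1, the smallest that 3 against 3 libraries allow. Leaving out Con 2, Con 3 or Van 2 ended the call (edgeR adjusted p = 0.0539, 0.0721 and 0.0692), with the log2 fold change between -0.65 and -0.56 over the 6 omissions. The call was also lost by limma on log2(FPKM + 1) and on log2(FPKM + 0.1) (adjusted p = 0.107 and 0.0828). With the replicate number as a block it was kept (edgeR adjusted p = 0.0383).

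Trim12a and Trim12c lie in the same cluster, and their promoters are close copies of that of Trim5. Trim12a had 64.6, 60.1 and 64.5 CPM in Con and 54.5, 46.5 and 54.1 in Van, a log2 fold change of -0.29 ± 0.077 (SE; edgeR adjusted p = 0.109). Trim12c had 77.9, 73.9 and 72.7 CPM in Con and 63.1, 61.6 and 66.7 in Van, a log2 fold change of -0.23 ± 0.061 (SE; edgeR adjusted p = 0.104). Neither gene overlapped between groups and neither was called by edgeR, whereas DESeq2, under which 7.49% of genes with a mean count of at least 50 were called, gave adjusted p = 0.0256 for Trim12a and 0.0228 for Trim12c. Of the 100-base stretches of annotated Trim5 transcript, 11.7% were found letter for letter in another gene, mostly in Trim12c (6.64%) and Trim12a (3.09%), so part of the reads of the 3 genes can be split between them by the counting.

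Their sum does not depend on that split. The summed set had 169, 164 and 164 CPM in Con and 135, 127 and 139 CPM in Van, or 166 ± 3.06 against 134 ± 6.01 (SD, n = 3 each). The groups were apart, with a log2 fold change of -0.31 ± 0.056 (SE; edgeR adjusted p = 0.036). That call was lost on leaving out any single library, with edgeR adjusted p between 0.0711 (without Van 3) and 0.156 (without Van 2) and a log2 fold change from -0.34 to -0.27. It was also lost with the replicate number as a block (edgeR adjusted p = 0.0902). By limma on log2(FPKM + 1) and on log2(FPKM + 0.1) the adjusted p was 0.124 and 0.113. Within the sum, the Trim5 share was 15.7%, 18.1% and 16.3% in Con and 12.7%, 14.9% and 13.0% in Van, without overlap (exact permutation p = 0.1). The Trim12c share was higher in Van without overlap, at 45.2% ± 0.854 against 47.8% ± 0.849 (SD, n = 3 each), and the Trim12a share overlapped.

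The Trim30 genes were also lower in Van, and none of them was called. Trim30a had 218, 253 and 232 CPM in Con and 202, 213 and 221 in Van, with overlap and a log2 fold change of -0.14 (edgeR adjusted p = 0.354). Trim30d had 79.3, 92.4 and 79.95 CPM in Con and 68.5, 70.9 and 77.1 in Van, without overlap, at -0.22 (edgeR adjusted p = 0.221). Trim30b, at 42.8, 45.8 and 48.9 CPM in Con and 40.3, 38.0 and 36.6 in Van, also did not overlap, at -0.26 (edgeR adjusted p = 0.119). Leaving out Con 2, the highest Con library in both, moved Trim30a to -0.08 and Trim30d to -0.14. Trim30c was scarce, at 5.61, 4.86 and 5.43 CPM in Con and 3.88, 5.76 and 4.34 in Van, with Van 2 the highest of all 6 libraries. The 4 genes together gave 346, 396 and 366 CPM in Con and 314, 328 and 339 in Van, a log2 fold change of -0.17 ± 0.065 (SE; edgeR adjusted p = 0.227), with every Van library below every Con library.

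Trim34a and Trim34b share 21.0% and 30.5% of their 100-base stretches. Trim34a had 28.2, 36.9 and 36.1 CPM in Con and 26.2, 27.5 and 30.4 in Van, and Trim34b had 4.82, 6.82 and 6.93 CPM in Con and 4.55, 4.88 and 5.26 in Van. In both genes Con 1 sat among the Van libraries while Con 2 and Con 3 lay above them. Their sum had a log2 fold change of -0.28 (edgeR adjusted p = 0.273). Annotated exons of Trim34a overlap Gm47248 on the opposite strand over 23.5% of their length, and the strand setting of the counting is not given in the sources used here. Trim6, the first gene of the cluster, had a mean of 30.2 counts and 0.308 to 0.724 CPM.

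The innate sensing members lie outside the cluster. Of the 16 with a mean count of at least 50, 13 were higher in Van, 4 had an unadjusted p under 0.05 (3 higher and 1 lower) and 1 was called, where 51.4% of genes with a mean count of at least 50 were higher, 19.4% passed and 2.46% were called. The called gene was Trim65 (ENSMUSG00000054517, chr11:116121846-116131128, reverse strand), a ligase that ubiquitinates the RNA sensor MDA5. It had 32.2, 37.0 and 32.1 CPM in Con and 49.4, 48.3 and 52.6 CPM in Van. Every Van library lay above every Con library, and the spread within each group was small beside the gap. The log2 fold change was 0.57 with a standard error of 0.077 (edgeR adjusted p = 0.0155; exact permutation p = 0.1). Leaving out Con 3, Van 2 or Van 3 ended the call (edgeR adjusted p = 0.0829, 0.0758 and 0.057), with a log2 fold change from 0.53 to 0.64 over the 6 omissions. The call was also lost with the replicate number as a block (edgeR adjusted p = 0.0505). By limma on log2(FPKM + 1) and on log2(FPKM + 0.1) it was lost as well (adjusted p = 0.109 and 0.0983).

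Trim65 overlaps its neighbor Trim47 on the same strand over 225 exon bases, which is 3.82% of Trim65 and 8.23% of Trim47. Trim47 had 4.37, 5.87 and 6.98 CPM in Con and 6.75, 8.77 and 8.28 in Van, a log2 fold change of 0.47 ± 0.19 (SE; edgeR adjusted p = 0.26), which was 0.30 without Con 1. The highest Con library overlapped the lowest Van library. Reads of the shared bases can be split between this pair by the counting.

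Trim25 was higher in every Van library, at 380, 402 and 379 CPM in Con and 495, 407 and 416 in Van. The log2 fold change of 0.18 ± 0.080 (SE) was not called (edgeR adjusted p = 0.298), and it was 0.09 without Van 1, the library with the highest value. Trim41, a ligase active against viral proteins, had 53.6, 55.0 and 61.8 CPM in Con and 61.3, 69.2 and 68.6 in Van, overlapping by 1 library, at 0.23 (edgeR adjusted p = 0.205). Trim21, the cytosolic antibody receptor, had the lowest log2 fold change of the sensing members, with 24.9, 25.5 and 24.8 CPM in Con and 20.8, 19.1 and 22.1 in Van, without overlap, and a value of -0.28 ± 0.077 (SE; edgeR adjusted p = 0.115). Trim56, a regulator of cGAS and STING signaling, had 103, 114 and 120 CPM in Con and 108, 103 and 95.5 in Van and overlapped (log2 fold change -0.14, edgeR adjusted p = 0.417), with -0.08 without Con 3 and -0.09 without Van 3. Trim8 overlapped widely in CPM, with 106, 126 and 126 in Con and 129, 126 and 120.0 in Van. Its log2 fold change of 0.07 (edgeR adjusted p = 0.737) became -0.01 without Con 1.

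**Figure D4:**
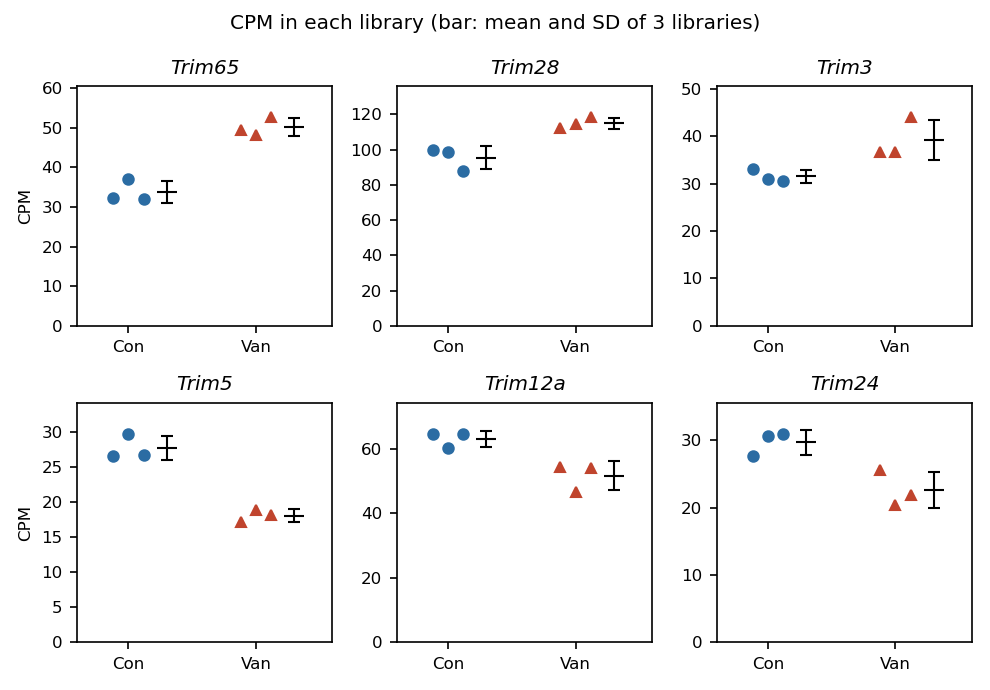
CPM in each library for Trim65, Trim28 and Trim3, which were higher in Van, and Trim5, Trim12a and Trim24, which were lower (circles Con, triangles Van, bars mean and SD of 3 libraries, axes from 0). In all 6 genes the Con and Van points do not overlap, and relative to the Con mean the gap is widest for Trim65 and Trim5.

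Of 11 interferon-inducible members, 9 were lower in Van (median -0.22 on the log2 scale), and Trim5 was the single one called by edgeR. There were 7 members at an unadjusted p under 0.05, 6 lower and 1 higher, where 19.4% of genes with a mean count of at least 50 passed and 2.46% were called. Of the 9 lower members, 6 belong to the chromosome 7 cluster. Among the 5 outside the cluster, Trim14, Trim21 and Trim56 were lower, and Trim25 and Trim26 were higher. Trim14 had 33.0, 36.4 and 37.4 CPM in Con and 31.0, 35.4 and 38.5 in Van, and its exons overlap Nans on the opposite strand over 31.3% of their length.

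None of the TIF1 members, which repress chromatin, was called by edgeR. Trim28, also known as KAP1, is the corepressor by which KRAB zinc finger proteins silence endogenous retroviruses. It had 99.98, 98.4 and 87.8 CPM in Con and 112, 114 and 118 CPM in Van, with a log2 fold change of 0.27 ± 0.066 (SE; edgeR adjusted p = 0.0833). Trim24, a coactivator and corepressor of nuclear receptors, had 27.6, 30.5 and 30.9 CPM in Con and 25.6, 20.3 and 21.9 in Van, with a log2 fold change of -0.39 ± 0.098 (SE; edgeR adjusted p = 0.0877). Neither gene overlapped between groups, and DESeq2 called both (adjusted p = 0.00675 and 0.0172). Among genes with a mean count of at least 50, 24.8% did not overlap and DESeq2 called 7.49%. Trim33, a regulator of SMAD4, differed by less than the spread, with 75.9, 70.7 and 71.2 CPM in Con and 75.1, 70.8 and 74.98 in Van. Trim66 was nearly absent, from 0 to 0.266 CPM.

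Of the NHL repeat proteins, Trim3 had 33.1, 31.0 and 30.6 CPM in Con and 36.7, 36.7 and 44.0 in Van, without overlap (log2 fold change 0.31 ± 0.087 SE, edgeR adjusted p = 0.12, DESeq2 adjusted p = 0.037). Per length the groups did overlap, with 16.0, 14.4 and 15.2 FPKM in Con and 15.6, 16.6 and 20.0 in Van, and on the log2(FPKM + 1) scale the difference was 0.16. Trim32 and Trim2 were also higher, at 0.29 and 0.07, with standard errors of 0.22 and 0.28. Among members of other roles, 7 of 8 were higher and none was called, with 2 at an unadjusted p under 0.05 by edgeR and none called by DESeq2. These counts stand beside the same 51.4% higher and 19.4% passing among genes with a mean count of at least 50. Trim44, a member without a RING domain, was the exception. It had 90.3, 90.4 and 85.8 CPM in Con and 82.4, 81.8 and 79.4 in Van, without overlap, at -0.13 ± 0.055 (SE; edgeR adjusted p = 0.288). Trim36, the single microtubule-linked member with a mean count of at least 50, was at -0.21 (edgeR adjusted p = 0.4). The 24 members with an unadjusted p of at least 0.05 ranged from -0.34 to 0.40, and 18 of them were higher in Van.

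Trim10 and Trim58 are erythroid members, and both were too scarce for a change to be given (mean counts of 41.5 and 7.41). Trim10 had 0.148, 0.313 and 0.325 CPM in Con and 1.19, 2.15 and 0.467 in Van. Trim58 had 0, 0.0445 and 0 CPM in Con and 0.335, 0.332 and 0.0778 in Van. These Trim58 values rest on few counts, 0, 2.67 and 0 in Con and 20.5, 16.9 and 4.39 in Van. In both genes every Van library lay above every Con library, and Van 3 was the lowest of the Van libraries. The summed erythroid markers, which included globin genes and Alas2, had the same order of groups, at 119, 174 and 86.6 CPM in Con and 405, 628 and 286 in Van, and their part in the Trim10 and Trim58 values was not tested. The other members with a mean below 50 overlapped between groups. Trim10 and Trim58 are thus 2 of the 15 members with a count and a mean below 50. Over all genes tested, 3623 of 16138 did not overlap. A count of 2 among 15 is too small to be set apart from that background.

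**Figure D5:**
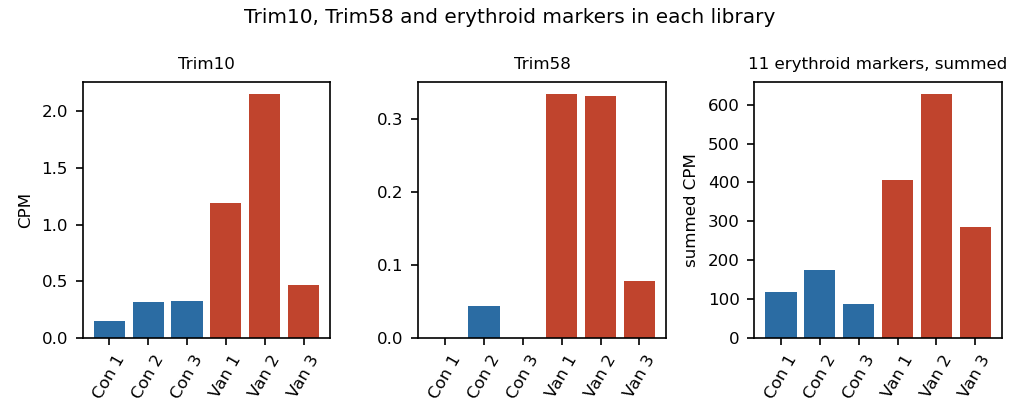
CPM of Trim10 and Trim58 and the summed CPM of 11 erythroid markers in each library (bars, axes from 0, Con blue and Van red). All 3 panels show higher Van than Con libraries, and Van 3 is the lowest Van library in each.

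Genes that work with TRIM proteins were counted in the same fit. Of 59 such genes, 2 were called, both lower in Van, a share near the 2.46% of genes with a mean count of at least 50. Among 5 family members named otherwise, 2 were higher and 3 lower, and Pml, the organizer of nuclear bodies, fell from 66.3 ± 4.1 to 46.3 ± 1.18 CPM (SD, n = 3 each, log2 fold change -0.52, edgeR adjusted p = 0.0131). The Pml call was lost without Con 2, Con 3 or Van 2, with adjusted p up to 0.0758. The sensing partners held 18 genes, of which 14 were lower in Van with a median of -0.12. At an unadjusted p under 0.05 there were 9 lower and 1 higher, beside 19.4% of genes with a mean count of at least 50 in either direction. Ifih1, which encodes MDA5, the target of Trim65, was called and fell from 134 ± 6.47 to 104 ± 4.31 CPM (SD, n = 3 each, log2 fold change -0.37, edgeR adjusted p = 0.03). Leaving out any library other than Con 1 ended that call, with adjusted p up to 0.132, and so did the replicate block (adjusted p = 0.0893). Mavs, the adaptor shared by RIG-I and MDA5, was the higher gene, at 36.3 ± 6.74 against 51.8 ± 4.68 CPM (SD, n = 3 each, log2 fold change 0.51, edgeR adjusted p = 0.0903). DESeq2 called 5 of the 18, Ifih1, Zbp1, Irf7 and Ikbkg lower and Mavs higher, beside 7.49% of genes with a mean count of at least 50.

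The remaining lists gave no call by edgeR, and their counts stand beside 19.4% of genes with a mean count of at least 50 at an unadjusted p under 0.05 and 7.49% called by DESeq2. Ubiquitin and its E1 and E2 enzymes, the enzymes upstream of every TRIM ligase, had 7 of 16 genes higher and a median of -0.01, with 2 genes at an unadjusted p under 0.05 and none called by DESeq2. The partners of KAP1 and TIF1 proteins had 7 of 10 higher and a median of 0.04, with 1 gene at an unadjusted p under 0.05, Smad4 at 0.22 (edgeR adjusted p = 0.127), which DESeq2 called. Interferon receptors and their signaling genes had 7 of 10 higher and a median of 0.04, with 2 genes at an unadjusted p under 0.05. Among them Stat2 was at -0.27 (edgeR adjusted p = 0.104), and DESeq2 called it.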

How the data were processed

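Poly(A) RNA of splenic monocytes was sequenced as 6 stranded libraries. According to the submitters' notes, reads were aligned to GRCm38 with HISAT2 2.2.1, handled with SAMtools 1.9 and assembled with StringTie 2.1.3, and the authors deposited FPKM per gene together with estimated counts converted from them by tximport 1.26.1. The expected counts, rounded to integers, were tested with edgeR 4.0.16 (R 4.3.3) on all genes: TMM scaling, filterByExpr with a minimum count of 10, the group as the single factor, and Benjamini-Hochberg adjustment. CPM were scaled by the TMM library sizes. DESeq2 1.42.0 and limma 3.58.1 on log2(FPKM + 1) served as alternatives. Counts derived from coverage do not give the number of molecules and depend on the read length assumed at import, so no counting interval is given, and a rescaling to fragments was run as an alternative. P-values of the fits weigh the difference between groups against the spread between the libraries of a group, a spread estimated with the help of all genes. The test was run on simulated data before use, with the same dispersion for every gene and with larger changes than those of the TRIM members. That run therefore does not cover changes of the size given here. The members and gene lists were chosen with earlier results of these data known. Values are given in every library for called members, members with an unadjusted p under 0.05 and the Trim5, Trim12, Trim30 and Trim34 genes of the cluster. They are also given for the 5 highest by FPKM, the TIF1 members, Trim21, Trim25, Trim56, Trim10 and Trim58. Exon overlaps and shared 100-base stretches came from the GENCODE M21 annotation of GRCm38, and promoters from RefSeq (GRCm38.p6). Replicate numbers were not used for pairing.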

Additional observations from a re-analysis of the deposited data

How the results depend on the processing

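The number of TRIM members called was 2 by edgeR, 7 by DESeq2, 1 with the replicate block, 0 by limma on log2(FPKM + 1) and 0 on log2(FPKM + 0.1), and from 0 to 2 on leaving out 1 library. At an unadjusted p under 0.05, each limma fit passed 12 members, beside 2708 and 2678 of the 24194 genes in those fits. Over all genes these settings called 322, 962, 110, 11 and 21 genes, and 21 to 136 on leaving out 1 library, with the lowest count without Van 2 and the highest without Con 1. The genes of the pathway lists gave 2 calls, 8 with DESeq2, 1 with the block and 0 to 2 on leaving out 1 library. Trim5 lost its call without Con 2, Con 3 or Van 2, and Trim65 without Con 3, Van 2 or Van 3 and with the block (adjusted p = 0.0505). The Trim5 set was no longer called with the block (log2 fold change -0.31084) or by limma (-0.307193 and -0.312625), and leaving out 1 library gave -0.339 to -0.274. The members' median was -0.0040 to 0.076 on leaving out 1 library, below 0 without Con 1. Trim8 reversed to -0.0110 without Con 1 (up to 0.110 without Con 3). All 9 cluster members remained lower in each alternative run, a count added after seeing the data, and 19 to 24 of the 30 other members were higher. Over the 16138 genes tested, deviations from the group means in same-numbered libraries correlated at 0.025, -0.0019 and -0.073, so the numbers were not taken as pairs, although the 4 globin markers went to an adjusted p of 0.000311 with the block. The block changed no other call of a TRIM member. The cause of these shifts was not tested. Groups of 3 limit what can be called.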
